A study of Mus musculus with 2 samples.

Results

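Transcription factors that steer blood cell precursors towards neutrophils, monocytes, macrophages or dendritic cells were followed through the myeloid cells of healing bone defects. The genes were chosen by symbol, 9 in all: Cebpa, Cebpb, Cebpd, Cebpe, Gfi1, Spi1, Irf8, Nr4a3 and Tgif1. Of these, 8 were matched among the 27998 genes listed, and Cebpd was not analysed here. The study made defects of 2 mm in the parietal bones of wild-type C57BL/6 mice and filled them with a hydrogel called CGG or one called CGG-Cit. Tissue was taken on day 14, digested with 0.3% collagenase, passed through a 70 µm strainer and sequenced as single cells with a droplet 3′ assay. There was 1 library per hydrogel, and the labels give neither the number of mice behind a library nor their age or sex. Both groups carried a gel, and no defect without one was analysed here.

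Granulocyte and monocyte precursors share a set of factors whose balance sets their course. C/EBPα (Cebpa) opens the myeloid programme, PU.1 (Spi1) is needed throughout it, IRF8 favours monocytes and dendritic cells, and GFI1 with C/EBPε (Cebpe) carries cells into granule-forming neutrophil stages. C/EBPβ (Cebpb) serves mature and activated myeloid cells, while NR4A3 is an orphan nuclear receptor switched on quickly by cell stimulation and TGIF1 is a homeodomain repressor known for damping TGF-β signalling.

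Because there is 1 library per gel, no difference between gels has a replicate check and no test was made. UMIs (counted transcript molecules) were summed over the cells of a class and given per 1000000 UMIs of that class (CPM), with exact 95% Poisson intervals. Ratios between libraries have exact conditional binomial 95% intervals. These intervals cover counting error only, so they say nothing of the spread between animals. A factor was counted as higher or lower with CGG-Cit when its ratio was at least 1.5-fold, its interval did not reach 1 and both libraries together held at least 20 UMIs. CPM is compared between classes for one gene, never between genes.

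Cells were assigned to classes by marker genes that include none of the factors. Neutrophils were split into 4 stages: precursors (led by markers such as Fcnb, Chil3 and Camp), immature cells (Ltf, Ly6g), mature cells with low Il1b (Retnlg, Mmp8, Cxcr2) and inflammatory mature cells (Il1b, Ccrl2, Cxcl2). The CGG library held 115 myeloid progenitors, 138 precursors, 398 immature, 357 mature and 202 inflammatory neutrophils, and 382 monocytes. The CGG-Cit library held 472, 456, 849, 1081, 267 and 609 of these. Cells rich in stromal transcripts had been left out, a limit set after seeing the data; without it the CGG progenitor gate held 297 cells and the CGG-Cit gate still 472. Plasmacytoid dendritic cells numbered 46 and 77. Macrophages were 877 cells in CGG but 20 in CGG-Cit, conventional dendritic cells 131 and 24, and migratory dendritic cells 44 and 13. Those 3 classes fell under the minimum of 30 cells per library and are given as levels without a ratio, which leaves 7 classes for comparison between gels. Depth differed too, at a median of 3969 UMIs per cell in CGG and 5913.5 in CGG-Cit, and 34 cell barcodes occurred in both libraries.

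In the GENCODE annotation of GRCm38, Cebpa lies at chr7:35119293-35121928 (plus strand), Cebpb at chr2:167688915-167690418 (plus), Cebpe at chr14:54710360-54712174 (minus), Gfi1 at chr5:107716657-107726036 (minus), Spi1 at chr2:91082390-91115756 (plus), Irf8 at chr8:120736358-120756694 (plus), Nr4a3 at chr4:48045153-48086447 (plus) and Tgif1 at chr17:70844205-70853546 (minus). Cebpb has a single exon. Cebpa, Cebpb and Gfi1 overlap a gene on the opposite strand (Gm45091, Tmem189 and A430072P03Rik) and Irf8 one on its own strand (Gm20388). No source used here gives the strand setting of the counting, so reads of such partners cannot be told apart.

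Promoter sequence is shown for Nr4a3 and Cebpb, factors with repeated copies of a short element, TGACG, the half-site of the cyclic AMP response element bound by CREB and ATF proteins. The stretches run up to the first annotated exon base on the plus strand of GRCm38.p6 (RefSeq promoter table), with TGACG, or CGTCA where it lies on the other strand, in capitals. The Nr4a3 stretch is chr4:48045055-48045152 and the Cebpb stretch is chr2:167688665-167688914.
Nr4a3: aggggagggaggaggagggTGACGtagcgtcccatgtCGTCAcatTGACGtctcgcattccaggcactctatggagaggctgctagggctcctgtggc
Cebpb: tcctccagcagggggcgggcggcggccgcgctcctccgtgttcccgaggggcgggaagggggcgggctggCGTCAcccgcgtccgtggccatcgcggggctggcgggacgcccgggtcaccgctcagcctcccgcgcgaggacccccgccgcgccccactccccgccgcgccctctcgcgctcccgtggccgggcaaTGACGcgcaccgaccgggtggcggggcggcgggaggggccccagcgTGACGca
Each holds 3 copies. At least 3 copies stood in 0.0274% of all 32851 promoters over the same 98 positions as in Nr4a3, and in 0.688% over the 250 positions of Cebpb. The 98 positions are the far end of the 250-base window before the RefSeq start. In Nr4a3 they lie next to the first annotated exon base, where its window was cut. The other promoters were not cut, so the 0.0274% is over stretches that need not lie next to an exon. The motifs searched on both strands were TGACG, the full element TGACGTCA (which contains it), TTGCNNAA for C/EBP proteins and AAAGGTCA for NR4A receptors, in 12 start site windows of 6 of the factors. For these counts the windows were the full 250 bases, not cut at exons. TGACG was in 2 of the 12 windows, those of Nr4a3 (4 copies when uncut) and Cebpb, and in 17.8% of all promoters. The full element was in none of these windows, TTGCNNAA in 1 of Gfi1 and AAAGGTCA in 1 of Tgif1. Among all promoters the shares were 1.55%, 9.56% and 1.34%. The Gfi1 window with the match keeps 0 bases when cut at exons. The Nr4a3 and Cebpb windows were picked after the matches were counted, and a match of letters describes the sequence only. Cebpe and Spi1 have no entry in the promoter table.

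The factors divided the myeloid cells by stage in much the same order with both gels. Of the 8 factors, 7 had their highest level in the same class of the 7 compared in both libraries. Gfi1 and Cebpa were highest in progenitors (Cebpa in CGG within counting error of inflammatory neutrophils), Cebpe in neutrophil precursors, Cebpb, Nr4a3 and Tgif1 in inflammatory mature neutrophils (Cebpb in CGG within counting error of the mature low-Il1b stage), and Irf8 in plasmacytoid dendritic cells. Spi1 was the exception, with mature low-Il1b neutrophils on top in CGG and inflammatory ones in CGG-Cit; in CGG these levels differed by less than counting error.

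**Figure D1:**
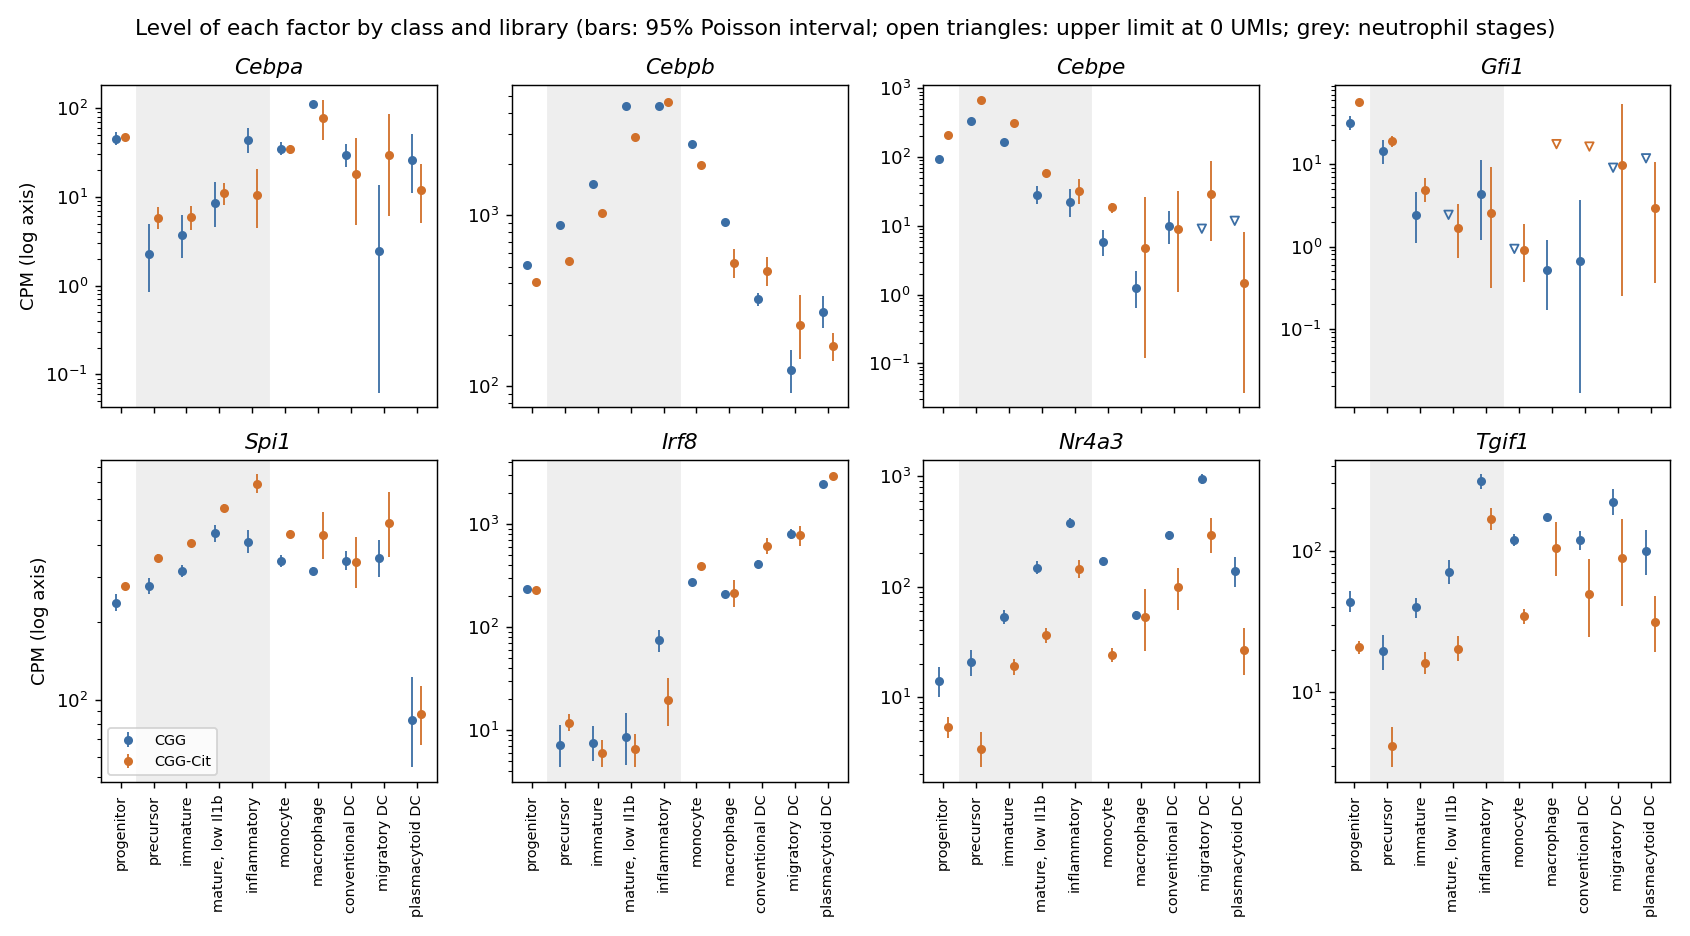
Level of each of the 8 factors (CPM, log axis) in 10 myeloid classes, with CGG in blue and CGG-Cit in orange; bars are 95% Poisson intervals, open triangles the upper limit where no UMI was found, and grey marks the 4 neutrophil stages. Cebpe peaks in precursors, Cebpb climbs through the neutrophil stages, and Irf8 is lowest in the first 3 of them.

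Cebpa, which starts granulocyte differentiation, stood at 45.3 CPM (140 UMIs) in CGG progenitors and 47.2 CPM (751 UMIs) in CGG-Cit progenitors. In neutrophil precursors it was 2.28 and 5.80 CPM, which is 19.8-fold and 8.13-fold below the progenitors. Immature cells had 3.76 and 5.85 CPM and mature low-Il1b cells 8.57 and 10.9 CPM. Monocytes kept levels near those of progenitors, at 34.8 and 34.1 CPM. Macrophages of the CGG library had 111 CPM (interval 105 to 118), 3.20-fold the monocyte level (interval 2.67 to 3.85); the 20 CGG-Cit macrophages had 76.5 CPM (43.7 to 124). Inflammatory neutrophils had 43.8 CPM in CGG, within counting error of progenitors, and 10.3 CPM in CGG-Cit; the macrophage RNA in that gate is given with the comparison between gels. Cebpa was thus low in the first 3 neutrophil stages with both gels, and in CGG it was highest in macrophages.

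Cebpe, needed for secondary granule proteins, followed a narrow arc. It was 92.8 CPM in CGG progenitors and 340 in precursors, then 169 in immature, 28.3 in mature low-Il1b and 21.9 in inflammatory neutrophils. With CGG-Cit the values were 209, 671, 319, 59.1 and 32.3 CPM in the same order. The step from progenitor to precursor was 3.66-fold in CGG and 3.20-fold in CGG-Cit, and that from immature to mature cells was a 5.95-fold and 5.40-fold drop. The arcs therefore had nearly the same shape at different heights. After cells were thinned to 1500 UMIs each, a Cebpe molecule was found in 37.2% of CGG and 58.2% of CGG-Cit precursors (95.7% and 97.8% unthinned), against 0.164% and 0.276% of erythroid cells (0.813% and 2.03% unthinned). Median depths were 17809 and 18714.5 UMIs in precursors and 11034 and 13538 in erythroid cells. Macrophages had 1.25 CPM in CGG, at the level of erythroid cells (0.845 CPM).

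Gfi1, a repressor that protects the neutrophil fate, ended earlier. It was 32.3 CPM in CGG and 57.6 CPM in CGG-Cit progenitors, 14.5 and 19.2 in precursors, and 2.42 and 4.92 in immature neutrophils. In mature low-Il1b neutrophils no UMI was found in CGG, where 3 UMIs would be 1.98 CPM, and 1.68 CPM in CGG-Cit. Inflammatory neutrophils had 4.38 CPM in CGG and 2.59 in CGG-Cit, on only 4 and 2 UMIs. Monocytes had no UMI in CGG and 0.915 CPM in CGG-Cit. Outside the myeloid classes the B lineage (23.0 and 15.9 CPM) and T or NK cells (17.4 and 15.1 CPM) held Gfi1, a factor lymphocytes also use.

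Cebpb, a factor of mature and activated myeloid cells, was lowest on the neutrophil path in progenitors and highest in mature cells, past the stages where Cebpe was highest. In CGG it was 508 CPM in progenitors, 877 in precursors, 1528 in immature, 4338 in mature low-Il1b and 4371 in inflammatory neutrophils. In CGG-Cit these levels were 407, 537, 1030, 2856 and 4608 CPM. The largest step along the neutrophil path in both libraries was from immature to mature cells, at 2.84-fold (2.74 to 2.94) in CGG and 2.77-fold (2.70 to 2.85) in CGG-Cit. From mature to inflammatory cells the step was 1.01-fold (0.968 to 1.05) in CGG and 1.61-fold (1.55 to 1.67) in CGG-Cit. This gap between the steps was not seen with cells grouped by clustering, where the ratio of CGG-Cit to CGG was 0.823 in mature and 0.784 in inflammatory cells. Without neutrophils rich in macrophage RNA (over 20 macrophage-marker UMIs per 10000), the CGG levels were 4327 CPM in mature and 4973 in inflammatory cells. Monocytes held 2614 and 1958 CPM, and CGG macrophages 912 CPM, 2.87-fold below monocytes. Dendritic classes were the lowest of the myeloid cells, at 123 to 322 CPM in CGG.

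Spi1, encoding PU.1, varied least among the factors along the neutrophil path. In CGG it ran from 238 CPM in progenitors through 277 and 316 to 444 in mature low-Il1b cells, with 411 in inflammatory cells. The CGG-Cit levels were 276, 356, 404, 556 and 691 CPM. Monocytes (346 and 440), macrophages (316 and 435), conventional dendritic cells (347 and 344) and migratory dendritic cells (355 and 484) lay in the same range. Plasmacytoid dendritic cells stood apart at 83.5 and 87.7 CPM, while T or NK cells had 7.18 and 9.28 CPM.

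Irf8 separated the neutrophil path from all other myeloid classes. Progenitors held 234 and 230 CPM, monocytes 275 and 390, CGG macrophages 211, conventional dendritic cells 414 and 616, migratory dendritic cells 812 and 780, and plasmacytoid dendritic cells 2458 and 2936. The order in CGG from plasmacytoid through migratory and conventional dendritic cells to monocytes, progenitors and macrophages had every neighbour apart by more than counting error. In neutrophil precursors the level was 7.23 and 11.8 CPM, 32.4-fold and 19.5-fold under progenitors, and immature and mature low-Il1b cells held 5.98 to 8.57 CPM. Erythroid cells, which should not use this factor, held 5.77 and 7.47 CPM, so these stages were at or close to that background. Inflammatory neutrophils held more, 74.5 and 19.4 CPM, and the macrophage RNA in that gate is given with the comparison between gels. The B lineage, where Irf8 also acts, held 226 and 205 CPM.

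Progenitors were divided by which of the opposing factors were detected in them. Every progenitor was thinned to 10000 UMIs, which left 95 of 115 CGG cells and 453 of 472 CGG-Cit cells. In CGG, Irf8 without Cebpe was found in 42 cells (44.2%, exact interval 34.0 to 54.8), Cebpe without Irf8 in 33 (34.7%, 25.3 to 45.2), both in 9 (9.47%) and neither in 11 (11.6%). In CGG-Cit the numbers were 149 (32.9%, 28.6 to 37.4), 212 (46.8%, 42.1 to 51.5), 51 (11.3%) and 41 (9.05%). Cells in which both factors were detected were the minority in each library. At 10000 UMIs a cell can hold a factor without a UMI of it being found. These shares therefore describe detection and do not show that a cell lacks a factor. The intervals of each share overlap between libraries, and in CGG those of the Irf8 and Cebpe cells overlap each other. With progenitors taken from clusters, 42 and 275 cells, Irf8 was 2.12-fold higher in CGG-Cit, against a ratio of 0.982 with gates.

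**Figure D2:**
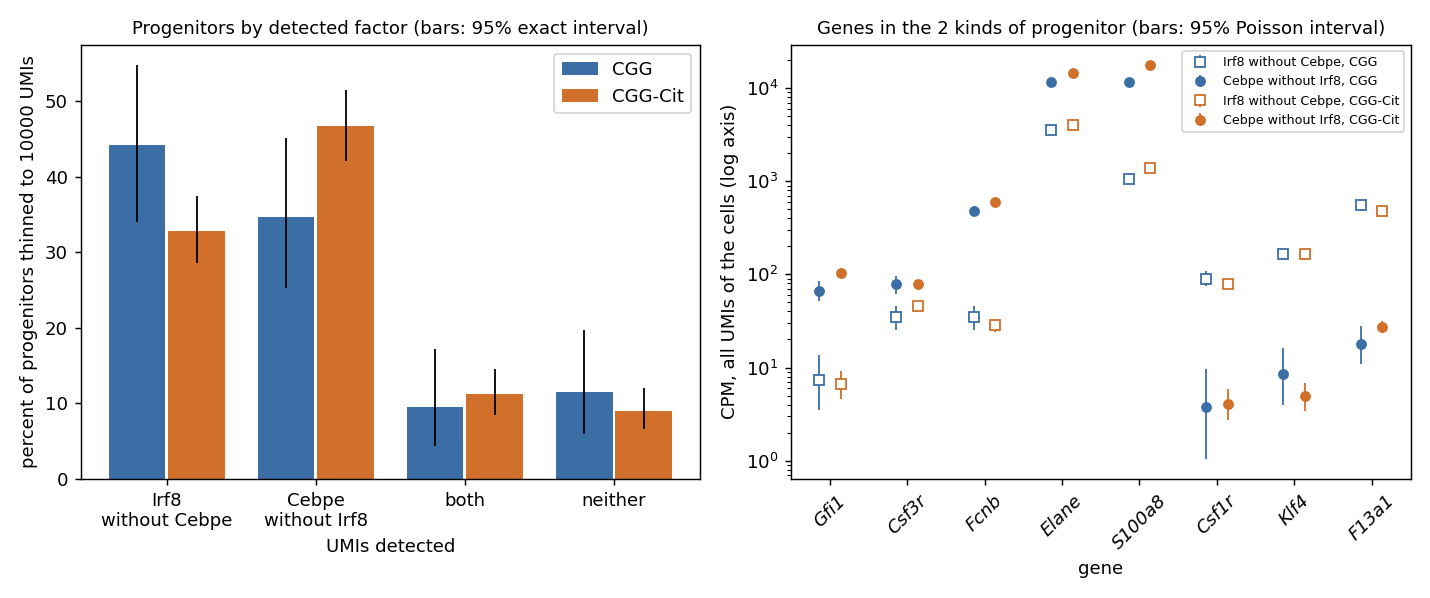
Left, percent of progenitors thinned to 10000 UMIs in which Irf8, Cebpe, both or neither were detected, by library, with exact 95% intervals. Right, CPM (log axis) of 8 genes in progenitors with Irf8 only (open squares) and Cebpe only (filled circles), with 95% Poisson intervals. Gfi1, Fcnb and S100a8 are higher in the cells with Cebpe, and Csf1r, Klf4 and F13a1 in those with Irf8, in both libraries.

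Several genes that took no part in this division differed between its sides in the same direction in both libraries. Gfi1 was 66.5 CPM in CGG cells with Cebpe only and 7.34 in those with Irf8 only, and 103 against 6.66 in CGG-Cit. S100a8, a neutrophil calcium-binding protein, was 11683 against 1056 CPM in CGG and 17914 against 1373 in CGG-Cit. Fcnb, a precursor granule protein, was 477 against 34.5 and 604 against 28.5 CPM. The macrophage colony-stimulating factor receptor Csf1r ran the other way, at 3.80 against 90.2 CPM in CGG and 4.08 against 78.0 in CGG-Cit. Klf4, a monocyte factor, was 8.55 against 164 and 4.89 against 164 CPM, and F13a1, a monocyte coagulation factor, 18.1 against 551 and 27.3 against 481 CPM. Elane, a protease shared by both precursors, was high on both sides, with 11632 against 3530 CPM in CGG. Cebpa (47.5 against 44.7 CPM in CGG, 48.2 against 43.2 in CGG-Cit) and Spi1 (254 against 241, 294 against 265) were nearly level across the division. Cebpb was lower in cells with Cebpe only, at 297 (265 to 331) against 654 CPM (612 to 699) in CGG. In CGG-Cit it was 360 (347 to 374) against 473 CPM (455 to 492). Nr4a3 was 8.55 (3.91 to 16.2) against 14.7 CPM (8.96 to 22.7) in CGG, where the intervals overlap. In CGG-Cit it was 2.58 (1.55 to 4.03) against 6.28 CPM (4.32 to 8.82). Tgif1 was 39.0 against 29.3 CPM in CGG and 17.3 against 21.7 in CGG-Cit, with intervals that overlap between the sides in both libraries. S100a8 and F13a1 were not used as progenitor markers, but Fcnb and F13a1 mark classes that compete with the progenitor gate, and Elane is one of its markers.

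Between gels, the factors fell into those higher, those lower and those mixed. Over the 7 classes, 50 pairs of factor and class had enough UMIs. Of these, 8 were at least 1.5-fold higher with CGG-Cit and 19 were lower. Cebpe gave 5 of the higher pairs, and Nr4a3 and Tgif1 gave 7 each of the lower ones. Among all 57276 gene and class pairs with enough UMIs, 5.44% were higher and 10.6% lower. By class, the median log2 ratio of all genes lay within 0.1 of 0 except in inflammatory neutrophils, where it was -0.27. Median-of-ratios scaling put that stage at 0.284 for Cebpa, 1.27 for Cebpb, 1.78 for Cebpe, 2.02 for Spi1, 0.313 for Irf8, 0.464 for Nr4a3 and 0.653 for Tgif1.

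By class, the counts of factors stood against different backgrounds. In progenitors 2 of 8 factors were higher and 2 lower, where 2.95% and 6.51% of all genes were. Precursors had 2 higher and 3 lower (4.86% and 7.89%), immature cells 1 and 2 (4.36% and 11.9%), and mature low-Il1b cells 1 and 3 of 7 with enough UMIs (6.47% and 10.6%). Inflammatory cells had 1 higher and 4 lower of 7, where 7.99% and 27.5% of genes were. Monocytes had 1 and 2 of 7 (5.73% and 9.22%), and plasmacytoid dendritic cells 0 and 3 of 5 (8.39% and 6.87%).

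**Figure D3:**
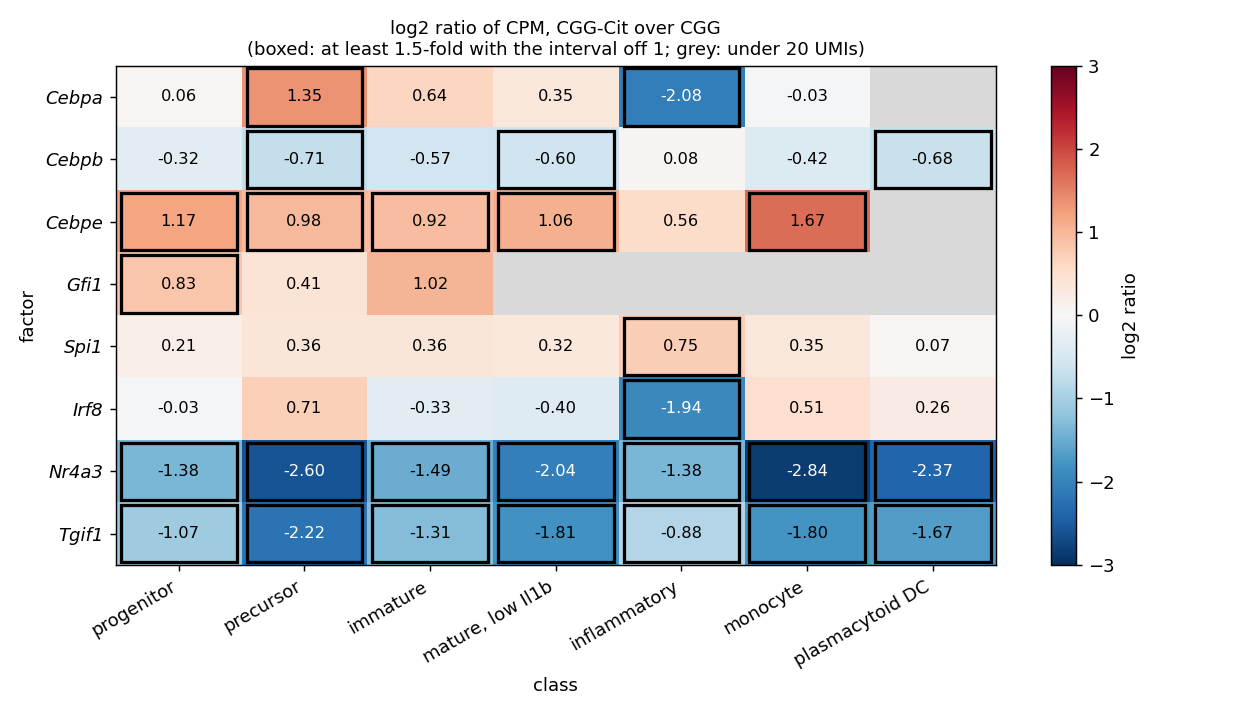
log2 ratio of CPM, CGG-Cit over CGG, for each factor (rows) in the 7 classes compared (columns); boxes mark ratios of at least 1.5-fold with an interval off 1, and grey fields hold under 20 UMIs. Cebpe is boxed as higher in 5 classes, and Nr4a3 and Tgif1 as lower in all 7.

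Cebpe was higher with CGG-Cit in 5 of the 6 classes with enough UMIs and above 1 in the other one. The ratio was 2.26 (2.00 to 2.56) in progenitors, 1.97 (1.84 to 2.12) in precursors, 1.89 (1.73 to 2.07) in immature and 2.09 (1.51 to 2.95) in mature low-Il1b neutrophils. In inflammatory cells it was 1.48 (0.787 to 2.80). With cells grouped by clustering in place of single-cell gates, Cebpe was 1.77 in progenitors and 1.10 in mature low-Il1b cells, which ends the call in the mature stage. With the 4 neutrophil stages weighted equally, the ratio was 1.94, against 2.21 over all neutrophils summed. Monocytes had the highest ratio, 3.18 (2.04 to 5.18), on 5.84 and 18.6 CPM. Beside it, the B lineage went from 0.940 to 4.65 CPM and erythroid cells from 0.845 to 2.16, and monocytes with UMIs of at least 3 of 8 cell cycle genes were 27.2% in CGG and 41.4% in CGG-Cit. Those with at least 1 of these genes after thinning to 1500 UMIs, a different measure, were 28.9% and 45.2%; without cycling cells the monocyte ratio was 6.65. The part of free RNA in it was not tested beyond subtraction of the lowest level among other cell types, which left the ratios of Cebpe between 1.38 and 2.81 over the 6 classes.

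Gfi1 was higher in progenitors, at 1.78 (1.45 to 2.21), and its ratios of 1.32 (0.928 to 1.93) in precursors and 2.03 (0.964 to 4.79) in immature cells had intervals that reach 1. Among progenitors with Cebpe only, Gfi1 was 66.5 CPM (51.9 to 84.1) in CGG and 103 CPM (95.5 to 110) in CGG-Cit. The higher Gfi1 level of progenitors was therefore seen within one side of the division as well as over all of them. At 10000 UMIs, 12 of 33 such cells (36.4%) held a Gfi1 molecule in CGG and 124 of 212 (58.5%) in CGG-Cit.

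Spi1 was above 1 in all 7 classes, at 1.05 to 1.68, but passed 1.5-fold only in inflammatory neutrophils (1.68, 1.47 to 1.92), where clusters gave 1.44. With doublets kept, and with a mean over cells in place of summed UMIs, 1 class was below 1. Cebpb leaned the other way and was below 1 in 6 of 7 classes. It was counted as lower in precursors (0.612, 0.582 to 0.643), mature low-Il1b neutrophils (0.658, 0.639 to 0.678) and plasmacytoid dendritic cells (0.626, 0.469 to 0.838), and was 1.05 (1.01 to 1.10) in inflammatory neutrophils. Clusters ended the call in the mature stage. The direction in inflammatory neutrophils turned with the setting: it was 0.784 with clusters, 0.889 with a gating margin of 1, 0.866 with a mean over cells and 0.934 without cells rich in macrophage RNA, and 1.27 with median-of-ratios scaling. Over all neutrophils summed, the Cebpb ratio was 0.636, and with equal stages 0.812. Inflammatory cells made up 18.4% of CGG and 10.1% of CGG-Cit neutrophils, and mature low-Il1b cells 32.6% and 40.7%.

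Nr4a3 and Tgif1 were lower in all 7 classes, in progenitors, monocytes and plasmacytoid dendritic cells as well as in every neutrophil stage. In each of these classes the CGG cells also held more RNA of macrophage and stromal markers. Over the 7 classes the 8 macrophage markers summed to 384 to 4617 CPM in CGG and 22.3 to 844 in CGG-Cit. The 8 stromal markers summed to 532 to 1504 and 11.5 to 56.9 CPM. In CGG, precursors had the lowest sums of both lists. Markers of other cell types went both ways by class. The 8 erythroid markers summed to 397 CPM in CGG and 1908 in CGG-Cit progenitors, but to 3940 and 2824 in precursors. CGG macrophages held more Tgif1 (174 CPM) than 6 of the 7 classes in CGG, all but inflammatory neutrophils. Without neutrophils rich in macrophage RNA, Tgif1 had ratios of 0.226, 0.416, 0.276 and 0.568 from precursors to inflammatory cells, and Nr4a3 0.167, 0.352, 0.242 and 0.322. Their levels within each library were highest in the inflammatory neutrophils among the 7 classes. In CGG, Nr4a3 was 13.9 CPM in progenitors, 20.6 in precursors, 52.9 in immature, 148 in mature low-Il1b and 376 in inflammatory neutrophils, and the CGG-Cit levels were 5.34, 3.39, 18.9, 36.1 and 145. Monocytes showed the widest gap, 171 against 23.9 CPM, or 7.16-fold lower; inflammatory neutrophils and progenitors had the narrowest, 2.59-fold and 2.60-fold lower. Among the classes with few CGG-Cit cells, migratory dendritic cells had 945 and 296 CPM, conventional ones 291 and 98.2, and macrophages 55.4 and 52.6. After thinning to 1500 UMIs, Nr4a3 was found in 20.3% of CGG and 3.33% of CGG-Cit monocytes (55.2% and 19.0% unthinned), against 0.164% and 0.184% of erythroid cells (3.74% and 1.5% unthinned). Monocytes had median depths of 8375.5 and 9819 UMIs.

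Tgif1 was 19.4 CPM in CGG precursors and 310 in inflammatory neutrophils, with 39.7 and 71.2 in the stages between; CGG-Cit had 4.16, 16.1, 20.3 and 168 in order. Its ratio ran from 0.214 (0.137 to 0.333) in precursors to 0.542 (0.437 to 0.670) in inflammatory cells. The precursor level was above that of erythroid cells in CGG (6.19 CPM) but below it in CGG-Cit (5.19 CPM), so the lowest ratio rests on a level at background. In monocytes it was 120 and 34.4 CPM, 3.48-fold lower. In the monocyte gate the macrophage markers summed to 2163 CPM in CGG and 844 in CGG-Cit, and the stromal markers to 860 and 21.6. Beside the 171 CPM of Nr4a3 in CGG monocytes, CGG macrophages held 55.4 CPM and CGG stromal cells 58.8. Other CGG cells held more: 945 CPM in migratory and 291 in conventional dendritic cells, 418 in T or NK cells and 376 in inflammatory neutrophils. The part of macrophage RNA in the Nr4a3 and Tgif1 ratios of progenitors, monocytes and plasmacytoid dendritic cells was not tested, nor that of the stromal RNA left in any class. With equal stages, Nr4a3 was 2.94-fold and Tgif1 2.11-fold lower over neutrophils, against 4.53-fold and 3.86-fold over summed cells. Both were below 1 in every class compared under each of the 10 other settings tried. Clusters brought the mature low-Il1b ratios to 0.451 for Nr4a3 and 0.535 for Tgif1, and the inflammatory ratio of Nr4a3 to 0.254.

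The 8 genes that respond to tissue dissociation, Fos, Jun and others, went different ways by class. They summed to 4250 and 10034 CPM in mature low-Il1b neutrophils, 7468 and 14749 in inflammatory ones and 5086 and 5986 in monocytes. Of the 8, those higher and lower with CGG-Cit were 1 and 2 in progenitors, 2 and 3 in precursors, 3 and 3 in immature, 4 and 2 in mature low-Il1b and 4 and 3 in inflammatory neutrophils, and 0 and 2 in monocytes; plasmacytoid dendritic cells had 0 and 2 of 7. The shares of all genes are those given by class above. The part of dissociation in the levels of Nr4a3 and Tgif1 was not tested.

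Lower levels of these factors were also seen outside the myeloid cells. T or NK cells held Nr4a3 at 418 and 97.7 CPM (ratio 0.233, 0.200 to 0.272) and Tgif1 at 233 and 122 CPM (0.524). In the B lineage the ratios were 0.127 and 0.543. Stromal cells were level for Nr4a3, at 58.8 and 57.8 CPM (0.983, 0.726 to 1.30), with only 47 cells in CGG-Cit, and lower for Tgif1 (0.550, 0.335 to 0.853). Erythroid cells had ratios of 0.469 for Nr4a3, on 23 and 26 UMIs, and 0.838 for Tgif1. Among all genes, 11% were lower and 4.8% higher in T or NK cells, 11.7% and 4.47% in the B lineage, 6.04% and 4.56% in stromal cells, and 5.15% and 35.5% in erythroid cells, where the median log2 ratio of all genes was 0.39. Of the close relatives of Nr4a3, chosen here for their kinship after the values were seen, Nr4a1 was 421 and 581 CPM in mature low-Il1b neutrophils, 865 and 837 in inflammatory ones and 877 and 681 in monocytes. Nr4a2 was 168 and 40.1 CPM in inflammatory neutrophils and 613 and 284 in monocytes. In inflammatory neutrophils and monocytes Nr4a2 was counted as lower and Nr4a1 was not, whereas Nr4a1 was counted as lower in progenitors (114 and 73.6 CPM) and plasmacytoid dendritic cells (476 and 193).

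Inflammatory neutrophils were the only class of the 7 in which Cebpa and Irf8 were counted as lower. Cebpa was 43.8 CPM (40 UMIs) in CGG and 10.3 (8 UMIs) in CGG-Cit, a ratio of 0.236 (0.0954 to 0.511), which clusters turned to 1.17. Irf8 was 74.5 and 19.4 CPM, a ratio of 0.260 (0.138 to 0.460). In monocytes Irf8 had a ratio of 1.42 (1.32 to 1.52) and in plasmacytoid dendritic cells 1.19 (1.10 to 1.30), both under 1.5-fold, and in progenitors 0.982 (0.906 to 1.06), which clusters turned to 2.12. In the same gate the 8 macrophage markers, C1qa, Apoe and others, summed to 4617 CPM in CGG and 449 in CGG-Cit, with 0 and 2 of them at 0. The 8 stromal markers summed to 1504 and 56.9 CPM. Cells with over 20 macrophage-marker UMIs per 10000 were 84 of 202 in CGG and 11 of 267 in CGG-Cit. Without them Cebpa was 12.7 CPM (4.67 to 27.7) in CGG and 9.64 (3.88 to 19.9) in CGG-Cit, and Irf8 was 33.9 (19.4 to 55.1) and 13.8 (6.61 to 25.3), a ratio of 0.406. The CGG level of Cebpa was then within counting error of that in CGG-Cit, while Nr4a3 (467 and 150 CPM), Tgif1 (286 and 163) and Spi1 (365 and 696) kept the gap between gels. Cebpb was 4973 and 4646 CPM without these cells, against 4371 and 4608 with them, so its direction turned. Irf8 also moved with other settings, to 0.587 with clusters, 0.515 with doublets kept and 0.460 with a margin of 1, each below 1.

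**Figure D4:**
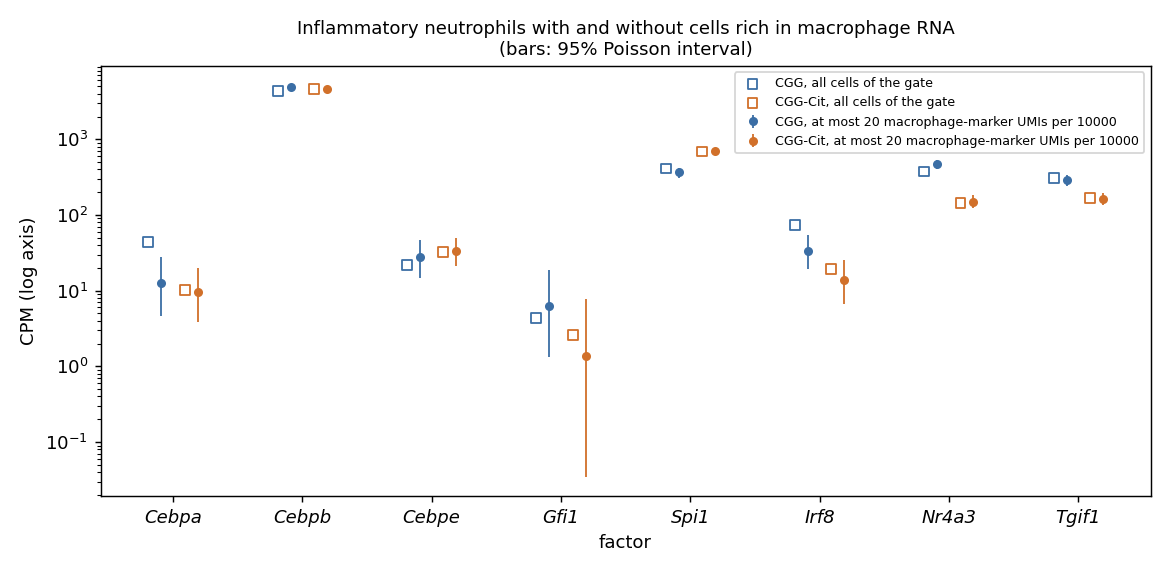
CPM (log axis) of each factor in inflammatory neutrophils, with all cells of the gate (open squares) and without cells over 20 macrophage-marker UMIs per 10000 (filled circles with 95% Poisson intervals), by library. The CGG levels of Cebpa and Irf8 move down without these cells, and Nr4a3 and Tgif1 stay higher in CGG.

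Other transcription factors of myeloid cells, a list of 34, gave a wider view. Those with enough UMIs numbered 30 in progenitors, 27 in precursors, 26 in immature and in mature low-Il1b cells, 25 in inflammatory cells, 30 in monocytes and 24 in plasmacytoid dendritic cells. Of these, 3, 3, 3, 6, 4, 2 and 3 were higher with CGG-Cit and 9, 7, 10, 8, 11, 11 and 7 lower. Among all genes, 2.95%, 4.86%, 4.36%, 6.47%, 7.99%, 5.73% and 8.39% were higher and 6.51%, 7.89%, 11.9%, 10.6%, 27.5%, 9.22% and 6.87% lower, in the same order. Klf2, which holds leukocytes in quiescence, was 254 and 818 CPM in mature low-Il1b neutrophils and 350 and 1594 in inflammatory ones. The immediate early factor Egr1 was 196 and 1021 CPM in the mature stage, while Klf4 there was 39.5 and 4.61. Bhlhe40, a stimulus-induced repressor, was 65.5 and 21.3 CPM in precursors and 15.2 and 4.08 in progenitors. Maf, a macrophage factor, was 103 and 31.9 CPM in monocytes.

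Known targets and regulators of C/EBP proteins, PU.1 and IRF8, a list of 15, gave the following counts, to be set beside the same shares of all genes. Of 14 with enough UMIs in progenitors none was higher and 1 lower, Csf1r at 51.4 and 33.9 CPM. Precursors had 1 higher and 2 lower of 14, immature cells 1 and 2 of 14, mature low-Il1b cells 0 and 1 of 13, monocytes 0 and 2 of 14, and plasmacytoid dendritic cells 0 and 4 of 11. The lipopolysaccharide co-receptor Cd14 was lower in monocytes (976 and 462 CPM), immature (668 and 354) and mature low-Il1b neutrophils (788 and 410). Inflammatory neutrophils had 3 higher and 5 lower of 14. The granulocyte colony-stimulating factor receptor Csf3r was 799 and 1413 CPM and Tyrobp, an immune receptor adaptor, 4995 and 7974, while the Fc receptor Fcgr1 was 113 and 5.17 and the oxidase subunit Cybb 692 and 211 CPM in that gate, beside its macrophage RNA given above.

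The genes whose levels ran most like each factor were sought over the 17 points of class and library with at least 30 cells, among 7211 genes outside the marker lists. Cebpe ran with Tkt (Pearson r 0.948), Gpi1 and Prom1, and Cebpb with Hgsnat (0.941), Nadk and Atg7. Irf8 ran with Bmyc (0.977), Pkib and Coro2a. Cebpa ran with Hexa (0.903), Rreb1 and Casp1, Gfi1 with Alas1 (0.881), Pde4d and Prss57, and Spi1 with Vill (0.909), Il15 and Ralb. Nr4a3 ran with Nfkbie (0.962), Traf1 and Maff, and Tgif1 with Maff (0.942), Impact and Ppp1r15a. Points from the same library share its depth and free RNA, so these values only describe the pattern.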

How the data were processed

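The deposited values are unnormalized UMI counts for each gene in each barcode, made by the authors with Cell Ranger 4.0.0 per the file headers (3.0 per the submitters' processing notes) on mm10; the strand setting and kit version are not given in the sources used here. They held 12527 barcodes and 92517884 UMIs for CGG, and 10806 barcodes and 106173570 UMIs for CGG-Cit. Barcodes with at least 200 genes and at most 20% mitochondrial UMIs were kept, and doublets were removed with Scrublet. Its threshold marked 537 CGG-Cit cells (5.10%) but 1 CGG cell, so there the 1231 highest scores (10.0%) were removed. This left 11048 and 9994 cells. Python 3.11.15, scanpy 1.11.5, numpy 2.4.6 and scipy 1.17.1 were used.

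A cell's score for each of 19 marker lists was the mean of its 5 highest log2 enrichments over all cells (pseudocount 1 per 10000 UMIs). A gate needed 3 detected markers, a score of 1 and a margin of 0.3 over the next lineage. The markers Trbc2 and Trdc were not matched. Cells with over 40 stromal-marker UMIs per 10000 were left out (1194 in CGG and 1 in CGG-Cit), a limit set after seeing the data, as was the limit of 20 macrophage-marker UMIs per 10000 used as an alternative. The calculation of ratios and intervals was run on simulated Poisson counts. These hold counting error only, so they cannot show whether the intervals cover the spread between cells or animals. The factors, lists and markers were chosen with earlier results of these data known. Named genes were all factors, at most 2 per list, class and direction by ratio, and the 3 genes most like each factor by Pearson correlation of log2(CPM + 1), with a mean of at least 10 CPM. The Cd14, Nr4a1 and Nr4a2 values outside that rule were chosen after being seen. Alternatives changed the gating margin, clusters in place of gates, doublets, the gene minimum, the UMI minimum, scaling, cell weights, stage mix, free RNA, cycling cells, and stromal and macrophage limits.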

Additional observations from a re-analysis of the deposited data

Results flagged for a closer look

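Cebpa was counted as higher with CGG-Cit in 1 neutrophil stage and as lower in another. Its ratio of CGG-Cit to CGG was 2.54 (interval 1.09 to 7.23) in precursors, on 6 and 53 UMIs, and 0.236 (0.0954 to 0.511) in inflammatory mature neutrophils, on 40 and 8 UMIs. The difference between the stages was not tested, since there is 1 library per gel. Without the inflammatory neutrophils rich in macrophage RNA, the ratio there was 0.758, with both levels within counting error of each other. With clusters in place of gates it was above 1. In CGG precursors, 2.28 CPM was near the levels of the B lineage (2.82), T or NK (1.51) and erythroid cells (1.27). In CGG-Cit precursors, 5.80 CPM stood beside 0.536, 0 and 0.467 in those cells.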

How the results depend on the processing

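No paired analysis was possible because there is 1 library per gel, and no replicate could be left out. Over the alternatives run, the number of factors highest in the same class in both libraries was 5 to 8, pairs higher with CGG-Cit 4 to 10 and pairs lower 14 to 22. The lowest number of higher pairs, 4, came without cycling cells, where only 5 classes kept 30 cells per library. Of 484 ratios under the 10 settings that regroup or rescale cells or subtract free RNA, 435 stayed within the interval of the reported value, 48 left it without changing a called direction and 1 reversed: Cebpa in inflammatory neutrophils was 1.17 with clusters in place of gates. Clusters moved the most ratios, 17 of 50; the cause was not tested. Equal weights for the 4 neutrophil stages left Cebpa at 0.563, Cebpb at 0.812 and Irf8 at 0.447. Depth limits Gfi1 in mature cells and all factors in the small dendritic and macrophage classes of CGG-Cit.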

Other observations

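Of the cell cycle genes, all 8 were higher with CGG-Cit in monocytes, summing to 1439 CPM in CGG and 2522 in CGG-Cit, and in plasmacytoid dendritic cells, at 299 and 1932 CPM; among all genes 5.73% and 8.39% were higher there. In immature neutrophils 6 of 8 were lower, at 610 and 358 CPM, where 11.9% of all genes were, and in progenitors and precursors none passed 1.5-fold with an interval off 1. Mast cells or basophils, 19 and 73 cells, held Cebpa at 90.9 and 194 CPM.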
